A study of Homo sapiens with 480 samples.

Results

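The genes described here are 44 genes of DNA replication in S phase: enzymes that make deoxynucleotides, proteins that open origins, the replicative polymerases and primase, the sliding clamp and its loader, the enzymes that finish Okazaki fragments, chromatin assembly factors, and repair and fork checkpoint proteins. They were chosen by name, with earlier results of these data known, and all 44 were found among the 20302 features of the table. A separate list of MCM helicase and licensing genes was left out. CDC6, ORC1 and ORC6, of origin recognition and helicase assembly, are nevertheless among the 44. All 44 also passed the filter on low counts, which kept 13560 genes. They were measured in single cells of 2 human lines. Jurkat cells come from a human T cell leukaemia. J-Lat A2 is 1 clone of Jurkat that carries an integrated, mostly silent HIV minigenome, so all groups share the Jurkat background. The cells had 24 h with 1 uM SAHA (suberoylanilide hydroxamic acid, an inhibitor of histone deacetylases), PMA at 1 ug/mL (a phorbol ester, which switches on protein kinase C) or 0.1% v/v DMSO, the solvent. They were then stained with DAPI and sorted, 1 cell per well, into 5 plates of 96 wells. The groups were J-Lat A2 with SAHA (120 wells of a first batch and 81 of the second), J-Lat A2 with PMA (81 wells), J-Lat A2 with DMSO (96 wells), Jurkat with SAHA (36 wells), Jurkat with PMA (36 wells) and Jurkat with DMSO (30 wells).

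A cell that commits to division releases E2F transcription factors from the retinoblastoma protein, and E2F then raises the genes for nucleotide synthesis and for the replication fork. Their messages are most abundant from late G1 through S phase, while another set of genes, for the spindle and mitosis, follows in G2 and M phase. In T cell lines such as Jurkat, which divide without a growth signal, unsynchronised cells are spread over the whole cycle. The summed message of such genes in a pool of cells reads both how many cells are in S phase and how much message each of them holds, and in the plate sums below these cannot be told apart.

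The start regions of the 44 genes were read from RefSeq (GRCh38.p14), from 250 bases before to 50 bases after each start, and 40 genes had an entry; GINS4, POLD3, ATAD2 and WDR76 had none. An E2F-type word (TTTCCCGC, TTTGGCGC, TTTCGCGC or TTTGCCGC, on either strand) was present in 18 of the 40 windows (45%), against 908 of all 27305 windows (3.33%). It was present in 2 of 33 windows of genes of G2 and M phase (6.06%) and in 6 of 11 windows of MCM and licensing genes (54.55%). The word TTTGAA, the core of the element of mitotic genes called CHR, was in 1 of the 40 windows (2.5%), against 22 of the 33 windows of G2 and M phase genes (66.67%) and 15.43% of all windows. CCAAT was in 25 of the 40 windows (62.5%), 23 of the 33 (69.7%) and 35.7% of all. A match is only a match of letters. The first 3 windows shown are those of genes with an E2F-type word that changed with a drug, with the word in capitals: TYMS on the plus strand (chr18:657403-657702), CDC6 on the plus strand (chr17:40287629-40287928) and POLE2 on the minus strand (chr14:49688165-49688464). The other 2, UNG on the plus strand (chr12:109097347-109097646) and POLD2 on the minus strand (chr7:44123499-44123798), are of genes that also changed and hold none of the 4 words, so they have no capitals.
TYMS: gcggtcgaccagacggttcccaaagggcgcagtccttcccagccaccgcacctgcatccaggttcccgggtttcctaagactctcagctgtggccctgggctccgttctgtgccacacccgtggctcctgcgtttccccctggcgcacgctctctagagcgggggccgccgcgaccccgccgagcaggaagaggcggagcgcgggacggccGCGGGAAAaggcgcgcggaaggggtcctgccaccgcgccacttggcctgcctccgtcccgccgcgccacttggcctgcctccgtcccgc
CDC6: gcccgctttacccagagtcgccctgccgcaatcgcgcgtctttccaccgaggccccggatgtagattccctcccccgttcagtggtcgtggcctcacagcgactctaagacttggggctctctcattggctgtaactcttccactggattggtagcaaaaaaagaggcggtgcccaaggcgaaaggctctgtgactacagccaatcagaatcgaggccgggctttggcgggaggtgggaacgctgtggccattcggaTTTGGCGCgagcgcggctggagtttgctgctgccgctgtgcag
POLE2: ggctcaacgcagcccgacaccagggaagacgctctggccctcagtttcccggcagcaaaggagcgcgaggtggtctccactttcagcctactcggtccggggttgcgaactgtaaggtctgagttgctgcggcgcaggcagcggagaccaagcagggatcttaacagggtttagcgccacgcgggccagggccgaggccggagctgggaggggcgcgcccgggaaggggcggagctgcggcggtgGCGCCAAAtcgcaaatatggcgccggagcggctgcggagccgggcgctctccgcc
UNG: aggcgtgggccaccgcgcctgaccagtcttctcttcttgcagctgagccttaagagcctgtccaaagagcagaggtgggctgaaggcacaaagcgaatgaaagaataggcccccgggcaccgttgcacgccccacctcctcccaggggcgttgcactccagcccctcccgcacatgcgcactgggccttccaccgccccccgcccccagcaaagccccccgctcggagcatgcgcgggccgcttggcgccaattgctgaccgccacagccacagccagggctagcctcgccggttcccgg
POLD2: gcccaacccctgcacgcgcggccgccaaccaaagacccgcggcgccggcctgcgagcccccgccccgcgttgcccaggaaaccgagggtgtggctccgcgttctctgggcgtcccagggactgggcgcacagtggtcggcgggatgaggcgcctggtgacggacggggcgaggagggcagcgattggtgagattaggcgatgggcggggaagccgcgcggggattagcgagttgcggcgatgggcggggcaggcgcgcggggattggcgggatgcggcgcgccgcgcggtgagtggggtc
The word begins 39 bases before the start in TYMS (written there as GCGGGAAA, the opposite strand of TTTCCCGC), 5 bases before it in POLE2 (GCGCCAAA) and 7 bases after it in CDC6 (TTTGGCGC). PCNA and DTL hold a word 59 and 8 bases before the start.

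Of the 480 wells, 410 had enough reads and genes to be kept, with 19756 to 984418 counts each. The wells lost were mostly J-Lat A2 with SAHA, where the first batch kept 67 of 120 wells and the second 68 of 81, against 94 of 96 kept with DMSO. Kept wells were summed per plate to give levels in counts per 1000000 counts (CPM), with 1398739 to 19679858 counts per sum, and per batch for the tests. The summed level of 12 T lineage markers was 520.997 to 978 CPM over the plates of J-Lat A2 with SAHA and 5393 to 5807 CPM with PMA, against 2885 to 3282 CPM with DMSO. In Jurkat it was 669.9 to 791 CPM with SAHA and 5774 to 5967 CPM with PMA, against 2514 to 3517 CPM with DMSO. With SAHA 9 of the 12 fell in J-Lat A2 and 6 in Jurkat, against 4.9% and 2.37% of all genes. With PMA 4 rose in each line, against 1.18% of all genes in J-Lat A2 and 1.17% in Jurkat. The part of these changes in the results below was not tested. None of the 12 was at 0 in any group, and 4 of 5 B lineage markers were at 0 in every group, the exception being CD79A, which had 1.89 to 13.6 CPM under SAHA and 41.3 to 111.4 under PMA, against 37.97 to 108.9 CPM with DMSO in J-Lat A2. Myeloid markers summed to at most 5.44 CPM and epithelial and fibroblast markers to at most 14.6 CPM on any plate. The feature of the HIV construct had 8003 to 17898 CPM over the plates of J-Lat A2 with SAHA and 4692 to 6920.3 CPM with PMA, against 0.00 to 0.65 CPM with DMSO. It had at most 0.406 CPM in any Jurkat sum. For the drug-treated sums the feature was thus high where the labels say J-Lat A2 and near 0 where they say Jurkat. It cannot show which drug the Jurkat cells had, nor the label of each single well. Under DMSO this feature cannot tell J-Lat A2 from Jurkat.

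Averaged over plates, the sum of the 44 genes was lower with either drug in both lines, and lowest with PMA. In J-Lat A2 the 5 plates with SAHA gave 8335, 7846, 6867, 8407 and 8169 CPM and the 3 plates with PMA gave 5793, 7229 and 5279.9 CPM, against 10253, 9355, 8356, 10667 and 10058 CPM over the 5 plates with DMSO. In Jurkat the SAHA plates gave 6044, 7248 and 7247 CPM and the PMA plates gave 4937, 4225 and 6154 CPM, against 9642, 8847, 9156, 8279 and 6716 CPM on the DMSO plates. No PMA plate reached the lowest DMSO plate of its line. With SAHA, the J-Lat A2 plates overlapped the DMSO plates at 1 plate, P2770 of SAHA lying above P2769 of DMSO, and within each plate number the SAHA value was the lower. The Jurkat SAHA plates overlapped the DMSO plates only through P2771 of DMSO, the lowest of its group. Within plate numbers, the Jurkat SAHA value was lower on P2769 and P2770 but higher on P2771 (7247 against 6716 CPM). As means the sum was 7925 ± 629.5 CPM (SD, n = 5 plates) with SAHA and 6101 ± 1010.2 CPM (n = 3) with PMA, against 9738 ± 907 CPM (n = 5) with DMSO in J-Lat A2. It was 6846 ± 695 CPM (n = 3) with SAHA and 5105 ± 976 CPM (n = 3) with PMA, against 8528 ± 1127 CPM (n = 5) with DMSO in Jurkat. The log2 ratios of these means to DMSO were -0.297 for SAHA and -0.675 for PMA in J-Lat A2, and -0.317 for SAHA and -0.74 for PMA in Jurkat. No test was made of the sum. Message was unevenly shared among the genes. TYMS had the largest share of any of the 44 in J-Lat A2 with PMA (14.39% of the sum) and DMSO (12.09%). It also did in Jurkat with PMA (12.28%) and DMSO (13.21%). RRM2 had the largest share with SAHA (17.7% in J-Lat A2 and 9.71% in Jurkat). Without the 5 genes of most reads, RRM2, TYMS, RRM1, POLD2 and PCNA, the log2 ratios were -0.272 and -0.68 in J-Lat A2 and -0.254 and -0.681 in Jurkat, for SAHA and PMA in that order.

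**Figure D1:**
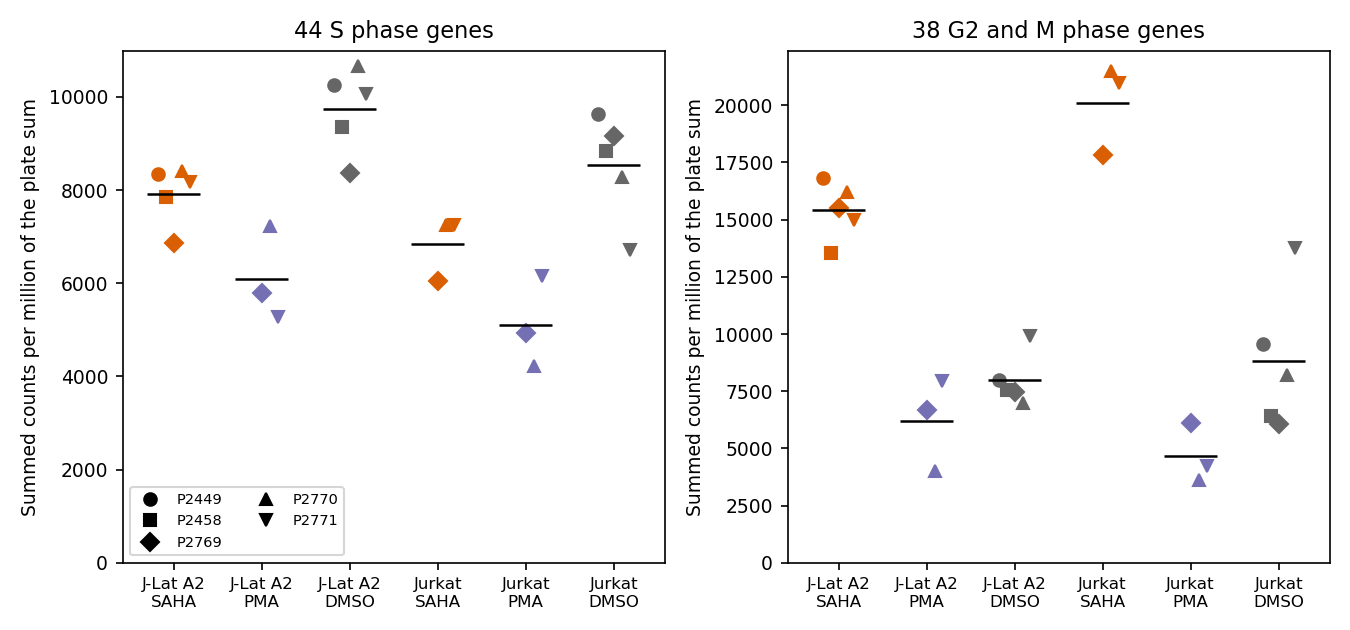
Summed CPM of the 44 S phase genes (left) and of 38 genes of G2 and M phase (right) in each plate sum, by line and treatment. Each symbol is 1 plate and each bar the mean over plates; all PMA plates lie under all DMSO plates of the same line for the S phase genes, while the SAHA plates lie above the DMSO plates for the G2 and M phase genes.

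With SAHA, 6 of the 44 genes fell in J-Lat A2 and 2 in Jurkat, and none rose. In J-Lat A2 the 6 were TYMS, UNG, POLE2, CDC6, RFC2 and CHAF1B (13.64% of the members, against 4.9% of all 13560 genes that fell and 3.53% that rose). In Jurkat they were TYMS and UNG (4.55%, against 2.37% of all genes that fell and 1.84% that rose); Jurkat with SAHA is 1 sum, from the second batch alone, and its spread was borrowed from the groups with a sum in each batch. A gene is said to fall or rise where edgeR's quasi-likelihood test, adjusted over all 13560 genes by Benjamini-Hochberg, gave p under 0.05. The median log2 change of the 44 was -0.325 in J-Lat A2, against 0.118 for all genes, with 31 of 44 below 0. In Jurkat it was -0.257, against 0.112, with 28 of 44 below 0. Over the alternative settings the median of the 44 ran between -0.486 and -0.245 in J-Lat A2 and between -0.269 and -0.085 in Jurkat, with that of all genes between 0.014 and 0.149 and between 0 and 0.208.

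Among the nucleotide genes, TYMS, the thymidylate synthase that makes the thymidine nucleotide anew, fell with SAHA in both lines. It had 477, 400.1, 501.02, 473 and 405 CPM in J-Lat A2 with SAHA, against 1171, 941, 1014, 1603 and 1295 CPM with DMSO. In Jurkat it had 346, 539.6 and 539 CPM with SAHA, against 1174, 959, 1377, 1122 and 928 CPM with DMSO. Every SAHA plate lay under every DMSO plate in both lines. Its log2 change was -1.44 ± 0.14 (SE, adjusted p = 0.000341) in J-Lat A2 and -1.29 ± 0.18 (SE, adjusted p = 0.00544) in Jurkat. TYMS (chromosome 18, 657604 to 673578 in GENCODE release 29, GRCh38) overlaps ENOSF1 on the opposite strand. The library does not mark strand, and 59.8% of the TYMS values above 0 were not whole numbers; whether reads were shared between the genes was not tested. ENOSF1, added after its values were seen, had 27.8 to 83.8 CPM with SAHA, against 65.2 to 93.1 CPM with DMSO in J-Lat A2. Its log2 change was -0.58 ± 0.29 (SE, adjusted p = 0.302) in J-Lat A2 and 0.32 ± 0.36 (SE, adjusted p = 0.767) in Jurkat.

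TK1, the thymidine kinase of the salvage route to the same nucleotide, did not share that fall. It had 134.5, 205, 159.3, 179.7 and 143.8 CPM in J-Lat A2 with SAHA, against 88.1, 134.4, 69.9, 96.6 and 104.2 CPM with DMSO, and 105.5, 83.3 and 154.3 CPM in Jurkat with SAHA, against 68.5, 47.9, 43.4, 26.1 and 44.3 CPM with DMSO. The SAHA plates lay above the DMSO plates in both lines, in J-Lat A2 by the smallest of margins. The log2 change was 0.74 ± 0.27 (SE, adjusted p = 0.137) in J-Lat A2 and 1.365 ± 0.345 (SE, adjusted p = 0.0608) in Jurkat, which did not pass the test. RRM1 and RRM2 are the large and small subunits of ribonucleotide reductase, which turns ribonucleotides into deoxyribonucleotides. RRM2 had 1364 ± 298 CPM (SD, n = 5 plates) with SAHA, against 1077 ± 236 CPM (n = 5) with DMSO in J-Lat A2, with a log2 change of 0.33 ± 0.23 (SE, adjusted p = 0.493). RRM1 had 432 ± 61.4 CPM (n = 5) with SAHA, against 602 ± 140.97 CPM (n = 5) with DMSO, with -0.485 ± 0.165 (SE, adjusted p = 0.114). Neither passed the test in either line.

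UNG, the glycosylase that removes uracil from DNA, had the largest fitted fall with SAHA of the 44 genes in both lines. It had 65.9, 101.9, 33.7, 65.04 and 56.04 CPM in J-Lat A2 with SAHA, against 222, 178.3, 179.7, 320.2 and 187.4 CPM with DMSO, and 40.9, 37.1 and 35.3 CPM in Jurkat with SAHA, against 122.1, 255, 460.0, 283 and 105.5 CPM with DMSO. No SAHA plate reached a DMSO plate in either line, and the Jurkat SAHA plates lay close together while the Jurkat DMSO plates spread widely. The log2 change was -1.80 ± 0.28 (SE, adjusted p = 0.00478) in J-Lat A2 and -2.54 ± 0.39 (SE, adjusted p = 0.00799) in Jurkat. With PMA, UNG had log2 changes of -0.87 ± 0.365 (SE, adjusted p = 0.366) in J-Lat A2 and -0.275 ± 0.35 (SE, adjusted p = 0.865) in Jurkat, which did not pass. UNG had a read in 57 wells (42.2%) of J-Lat A2 with SAHA, against 79 of 94 (84%) with DMSO, and in 24 of 36 wells (66.7%) of Jurkat with SAHA, against 26 of 30 (86.7%) with DMSO. The other repair and fork genes did not pass the test with SAHA, among them MSH6 of mismatch repair, the nuclease EXO1, the checkpoint mediator CLSPN and DTL, an adaptor of a ubiquitin ligase that acts on PCNA-bound proteins.

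The other genes that fell with SAHA in J-Lat A2 were CDC6, POLE2, RFC2 and CHAF1B. CDC6, which loads the MCM helicase on origins, had 154.7, 172.4, 66.4, 106.5 and 174.6 CPM with SAHA, against 278, 249.7, 132.6, 262 and 264 CPM with DMSO, and the groups overlapped only through plate P2769 of DMSO. POLE2, the second subunit of the leading-strand polymerase, had 35.7, 20.7, 42.8, 20.4 and 22.5 CPM with SAHA, against 89.6, 67.02, 25.7, 94.6 and 109.2 CPM with DMSO, again overlapping through that plate. RFC2, a subunit of the clamp loader, had 148.9, 203, 161.6, 189.5 and 175.4 CPM with SAHA, against 293, 310.5, 347, 291 and 227 CPM with DMSO. The RFC2 groups did not overlap. CHAF1B, the middle subunit of the chromatin assembly factor CAF-1, had 25.99, 35.6, 18.4, 70.03 and 64.6 CPM with SAHA, against 105.1, 94.2, 84.01, 111.4 and 67.2 CPM with DMSO, with 1 SAHA plate above the lowest DMSO plate. The log2 changes were -0.865 ± 0.18 (SE, adjusted p = 0.0179) for CDC6, -1.44 ± 0.275 (SE, adjusted p = 0.0111) for POLE2, -0.82 ± 0.185 (SE, adjusted p = 0.0236) for RFC2 and -1.30 ± 0.34 (SE, adjusted p = 0.0424) for CHAF1B. In Jurkat the same genes had log2 changes of -0.92 ± 0.24 (SE, adjusted p = 0.0689), -0.94 ± 0.36 (SE, adjusted p = 0.211), -0.82 ± 0.25 (SE, adjusted p = 0.106) and -1.30 ± 0.45 (SE, adjusted p = 0.159), in that order, and none passed the test. PCNA, the sliding clamp, had 489.8, 415, 382, 366 and 455 CPM with SAHA, against 550.0, 520.9, 503.8, 567 and 617 CPM with DMSO in J-Lat A2; its plates did not overlap, but the log2 change of -0.40 ± 0.17 (SE, adjusted p = 0.2) did not pass the test. Over all plates, 6 of the 44 genes had every SAHA plate under every DMSO plate in J-Lat A2 (PCNA, RFC2, TIPIN, TYMS, UNG and WDR76), against 5.13% of all genes, and TK1 alone had every SAHA plate above (5.18% of all genes). In Jurkat 7 were lower in this way (CHAF1B, FEN1, RFC2, TIPIN, TYMS, UNG and USP1, against 6.52% of all genes) and 4 higher (BLM, GINS4, RAD51AP1 and TK1, against 8.03%). Over the 3 plates of the second batch alone, 12 were lower (9.86% of all genes) and 3 higher (11.6%) with SAHA in J-Lat A2. In Jurkat 7 were lower (8.94%) and 7 higher (12.1%), an even split.

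TYMS and UNG passed the test with SAHA in both lines under 14 of 15 alternative settings. The exception was an equal weight for each cell in limma, under which no gene of the whole table passed. For the counts of called members that follow, the share of all genes called under the same alternative was not computed. CDC6 passed in 8, RFC2 and CHAF1B in 10 and POLE2 in 11 of the 15 in J-Lat A2, where leaving out the first-batch or second-batch DMSO sum of J-Lat A2 gave 3 and 2 called genes, and DESeq2 called 9. In Jurkat DESeq2 called 7, 3 of them higher (TK1, BLM and GINS4), and leaving out either J-Lat A2 SAHA sum gave 5.

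**Figure D2:**
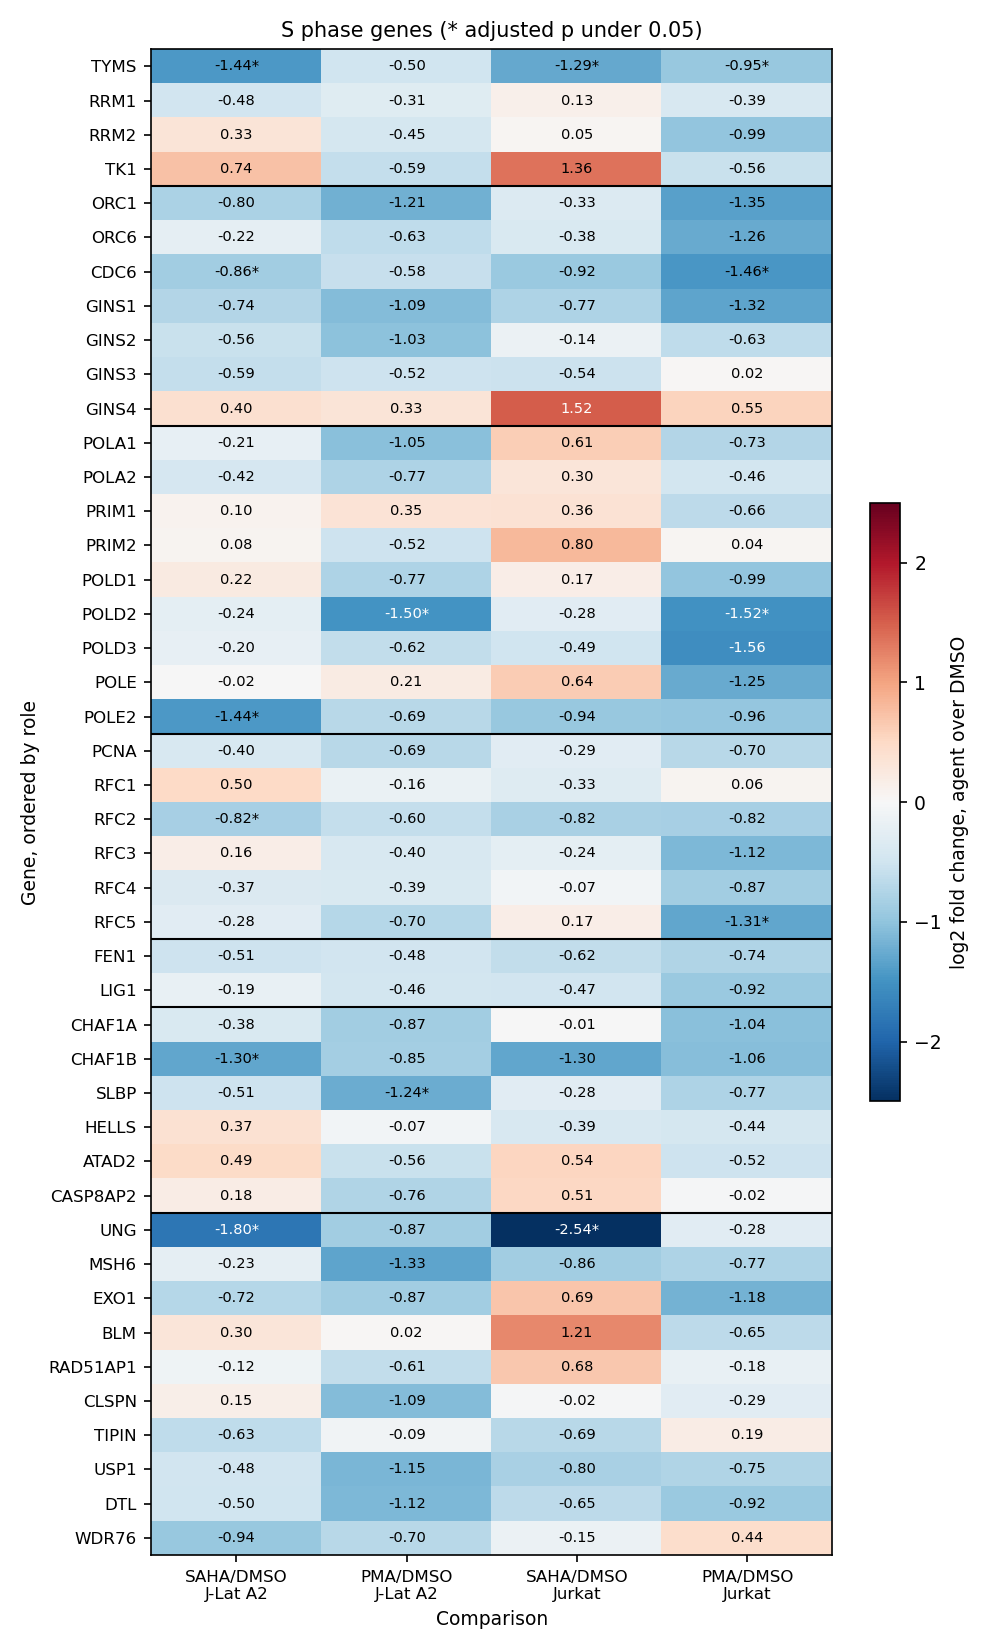
Fitted log2 fold change, drug over DMSO, of each of the 44 genes (rows, grouped by role with lines between the groups) in the 4 comparisons with DMSO (columns), coloured from blue (lower) to red (higher) and printed in each cell. An asterisk marks an adjusted p under 0.05 in edgeR; the marks are 6 and 2 in the J-Lat A2 columns and 2 and 4 in the Jurkat columns for SAHA and PMA, all on negative values.

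With PMA, 2 of the 44 genes fell in J-Lat A2, POLD2 and SLBP (4.55%, against 0.804% of all genes that fell and 1.18% that rose), and 4 fell in Jurkat, POLD2, CDC6, RFC5 and TYMS (9.09%, against 1.11% of all genes that fell and 1.17% that rose). None rose. The change was negative for 40 of 44 in J-Lat A2, with a median of -0.622 against 0.044 for all genes, and for 38 of 44 in Jurkat, with a median of -0.755 against 0.071. Of all genes, 47.8% and 46.1% had a negative change. Over the alternative settings the median of the 44 stayed between -0.72 and -0.535 in J-Lat A2 and between -0.936 and -0.616 in Jurkat. Each PMA group, like Jurkat with SAHA, is 1 sum from the second batch, with a borrowed spread.

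POLD2, the second subunit of the lagging-strand polymerase delta, fell with PMA in both lines. It had 198.7, 242 and 219.6 CPM in J-Lat A2 with PMA, against 556, 548, 585, 542 and 610.3 CPM with DMSO, and 161.5, 175.3 and 199.5 CPM in Jurkat with PMA, against 363, 420.4, 664, 541 and 394 CPM with DMSO. The highest PMA plate was under the lowest DMSO plate in both lines, and in J-Lat A2 the plates of each group lay close together. The log2 change was -1.50 ± 0.22 (SE, adjusted p = 0.00791) in J-Lat A2 and -1.52 ± 0.22 (SE, adjusted p = 0.00695) in Jurkat. With SAHA it was -0.24 ± 0.16 (SE, adjusted p = 0.453) and -0.285 ± 0.205 (SE, adjusted p = 0.568), which did not pass the test. POLD2 was read in 72 of 79 kept wells (91.1%) with PMA, against 93 of 94 (98.9%) with DMSO in J-Lat A2. The other subunits of polymerase delta, POLD1 and POLD3, had negative changes with PMA that did not pass.

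SLBP binds the stem loop that histone messages of S phase carry in place of a poly(A) tail. It had 205, 177.6 and 110.6 CPM in J-Lat A2 with PMA, against 414, 337, 439, 492 and 355 CPM with DMSO, without overlap, and a log2 change of -1.24 ± 0.265 (SE, adjusted p = 0.0485). In Jurkat it had 217, 138.9 and 143.4 CPM with PMA, against 273, 370.3, 378, 328 and 167.1 CPM with DMSO, and the lowest DMSO plate lay within the PMA plates. The log2 change there was -0.765 ± 0.26 (SE, adjusted p = 0.203), which did not pass.

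In Jurkat, CDC6, RFC5 and TYMS also fell with PMA. CDC6 had 57.5, 70.4 and 114.6 CPM with PMA, against 259, 242, 302, 246 and 114.04 CPM with DMSO, and the groups met at plate P2771, where the PMA and DMSO values differed by under 1 CPM. RFC5, a small subunit of the clamp loader, had 140.6, 67.97 and 120.4 CPM with PMA, against 312, 292, 230.2, 265 and 272 CPM with DMSO, without overlap. TYMS had 576, 537 and 771 CPM with PMA, against 1174, 959, 1377, 1122 and 928 CPM with DMSO, also without overlap. The log2 changes were -1.46 ± 0.25 (SE, adjusted p = 0.016) for CDC6, -1.31 ± 0.24 (SE, adjusted p = 0.0227) for RFC5 and -0.95 ± 0.18 (SE, adjusted p = 0.0279) for TYMS. In J-Lat A2 with PMA the same genes had -0.58 ± 0.24 (SE, adjusted p = 0.354), -0.70 ± 0.23 (SE, adjusted p = 0.21) and -0.50 ± 0.18 (SE, adjusted p = 0.252), in that order, and TYMS had 793, 1003 and 846 CPM. RFC5 overlaps WSB2 on the opposite strand, and its reads could be shared in part. PCNA had log2 changes of -0.69 ± 0.22 (SE, adjusted p = 0.186) in J-Lat A2 and -0.70 ± 0.22 (SE, adjusted p = 0.168) in Jurkat, and in J-Lat A2 PRIM1, a primase subunit, was the only member with every PMA plate above every DMSO plate (6.4% of all genes). No member had this in Jurkat (6.35% of all genes). PRIM1 overlaps NACA on the same strand and HSD17B6 on the opposite strand, and 31.9% of its values above 0 were not whole numbers. Whether its reads were shared was not tested. Over all plates, 12 of the 44 genes had every PMA plate under every DMSO plate in J-Lat A2, against 6.11% of all genes, and 13 in Jurkat, against 4.34%. DTL, GINS1, ORC1, ORC6 and POLD2 were among them in each line. Over the 3 plates of the second batch alone, which hold every PMA well, 16 genes were lower (7.96% of all genes) and 1 higher (10.6%) in this way in J-Lat A2, and 14 were lower (6.74%) and 0 higher (10.5%) in Jurkat.

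POLD2 passed in 14 of 15 alternative settings in J-Lat A2 and in 13 in Jurkat, and SLBP in 11. For the counts of called members that follow, the share of all genes called under the same alternative was not computed. DESeq2 called 7 genes in J-Lat A2 and 14 in Jurkat, all lower, while no Jurkat gene of the 44 was called without the second-batch DMSO sum of Jurkat and 11 were called without the second-batch SAHA sum of J-Lat A2. In J-Lat A2 the count was 1 without its second-batch DMSO sum, and 4 and 5 without its first-batch and second-batch SAHA sums.

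**Figure D3:**
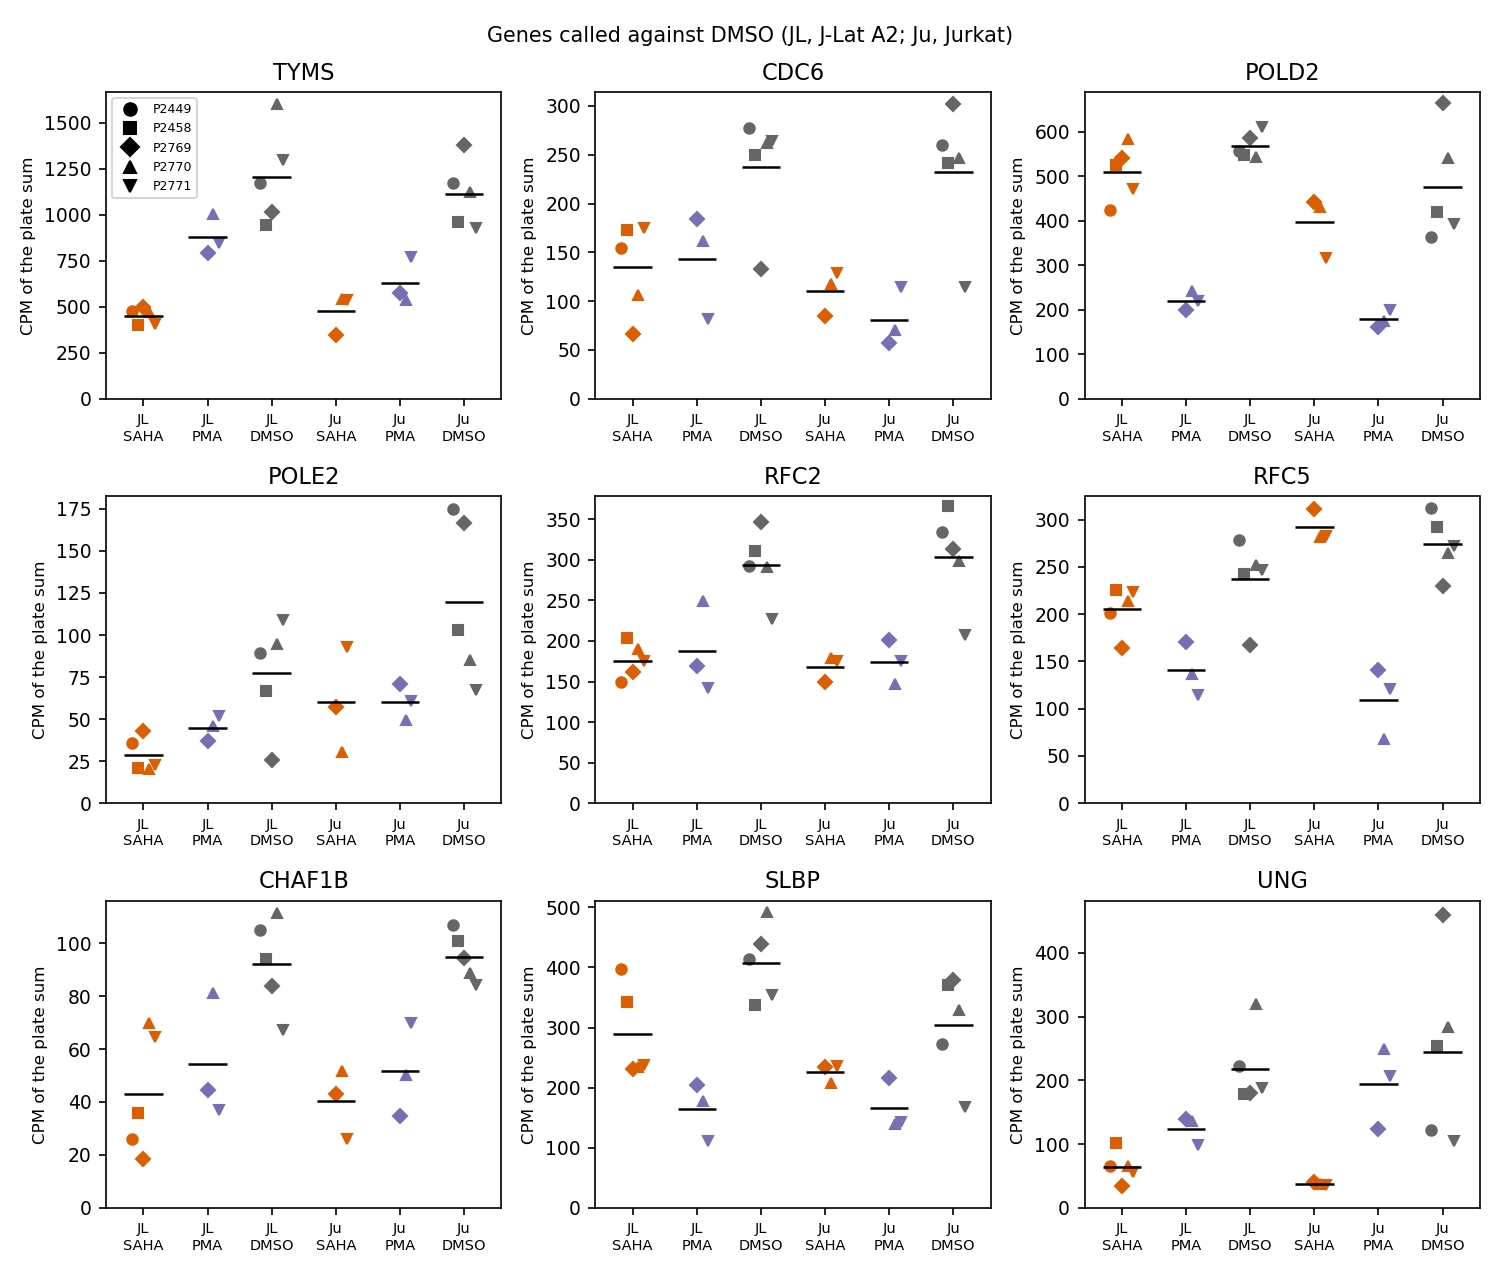
CPM in each plate sum of the 9 genes that fell in at least 1 comparison with DMSO, by line and treatment. Each symbol is 1 plate and each bar the mean over plates; for TYMS and UNG the SAHA plates lie under the DMSO plates in both lines, and for POLD2 the PMA plates do.

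Set directly against SAHA, PMA gave higher TYMS in J-Lat A2 (a log2 difference of 0.94 ± 0.17 SE, adjusted p = 0.0146) and lower POLD2 (-1.26 ± 0.21 SE, adjusted p = 0.0102) and CLSPN (-1.24 ± 0.29 SE, adjusted p = 0.0481); of all genes 2.25% were higher and 1.37% lower. CLSPN had 61.4, 70.8 and 38.6 CPM with PMA, against 148.02, 131.5, 174.6, 154.7 and 82.4 CPM with SAHA. It passed in 6 of 15 alternative settings. In Jurkat PMA gave higher UNG (2.27 ± 0.41 SE, adjusted p = 0.0133) and lower TK1 (-1.92 ± 0.39 SE, adjusted p = 0.0241), POLD2 (-1.23 ± 0.23 SE, adjusted p = 0.0153), RFC5 (-1.48 ± 0.25 SE, adjusted p = 0.0104), EXO1 (-1.875 ± 0.29 SE, adjusted p = 0.0061) and BLM (-1.86 ± 0.38 SE, adjusted p = 0.0263); of all genes 2.05% were higher and 1.81% lower. EXO1, a nuclease of mismatch repair, had 46.5, 64.1 and 48.2 CPM with PMA, against 133.04, 212 and 216 CPM with SAHA, and BLM, a helicase of recombination, had 25.2, 11.4 and 59.7 CPM with PMA, against 59.9, 102.5 and 166.4 CPM with SAHA. In both lines the mean over plates of TYMS and of UNG was lowest with SAHA, and that of POLD2 and of TK1 with PMA. These comparisons share the SAHA or PMA wells with those against DMSO.

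None of the 44 genes passed edgeR's test between J-Lat A2 and Jurkat under DMSO (0 called, against 0.251% of all genes higher and 0.147% lower). At an unadjusted p under 0.05, 9 were higher in J-Lat A2 (20.5%, against 5.15% of all genes) and 1 lower (2.27%, against 4.14%). DESeq2 called 1, WDR76, and the share of all genes that it called was not computed. With limma none was called and 4 had an unadjusted p under 0.05 (9.09%, against 8.64% of all genes), which is the background share. WDR76 had a log2 difference of 1.47 ± 0.33 (SE, adjusted p = 0.126), and TK1, with 69.9 to 134.4 CPM in J-Lat A2 against 26.1 to 68.5 CPM in Jurkat, 0.965 ± 0.27 (SE, adjusted p = 0.222). The difference between the lines in their response was also called for none of the 44, with SAHA (0.00737% of all genes higher and 0% lower) or with PMA (0.00737% higher and 0.0147% lower). At an unadjusted p under 0.05, edgeR had 1 higher and 2 lower for SAHA (6.82% in either direction, against 3.77% of all genes) and 2 higher and 0 lower for PMA (4.55%, against 3.39%). DESeq2 and limma called none, and limma had 1 for SAHA (2.27%, against 5.71% of all genes) and 2 for PMA (4.55%, against 5.91%) at an unadjusted p under 0.05. So a gene called in only 1 line, such as CDC6 with SAHA or PMA, was not shown to differ between lines: for CDC6 the difference in log2 change, J-Lat A2 minus Jurkat, was 0.06 ± 0.30 (SE, adjusted p = 1) with SAHA and 0.88 ± 0.315 (SE, adjusted p = 1) with PMA.

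Related genes outside the 44 were counted from lists chosen by function, with earlier results of these data known. Among all genes, 3.53% rose and 4.9% fell with SAHA in J-Lat A2, and 1.84% rose and 2.37% fell in Jurkat. With PMA the shares were 1.18% and 0.804% in J-Lat A2 and 1.17% and 1.11% in Jurkat, in the same order. Of 32 other fork and nucleotide genes, 31 were tested: 1 rose and 5 fell with SAHA in J-Lat A2, 2 rose and 2 fell with SAHA in Jurkat, and 2 fell with PMA in each line. CTPS1, the CTP synthase, fell with SAHA in J-Lat A2 (-1.515 ± 0.18 SE, adjusted p = 0.00102) and Jurkat (-1.80 ± 0.24 SE, adjusted p = 0.00411) and with PMA in J-Lat A2 (-1.27 ± 0.23 SE, adjusted p = 0.0239), and UHRF1, which maintains DNA methylation at forks, fell with SAHA in both lines (-1.47 ± 0.26 SE, adjusted p = 0.00812 and -1.75 ± 0.355 SE, adjusted p = 0.0249). TOP2A, a topoisomerase that peaks in G2 and M phase, rose with SAHA in both (1.22 ± 0.20 SE, adjusted p = 0.00603 and 1.89 ± 0.25 SE, adjusted p = 0.00411). Of 13 MCM and licensing genes, 1 rose and 6 fell with SAHA in J-Lat A2 and 4 fell in Jurkat, and 2 and 3 fell with PMA. MCM4, a helicase subunit, fell in all 4 comparisons: -1.13 ± 0.18 (SE, adjusted p = 0.00506) and -1.11 ± 0.24 (SE, adjusted p = 0.0302) with SAHA and -1.28 ± 0.24 (SE, adjusted p = 0.026) and -1.23 ± 0.24 (SE, adjusted p = 0.0302) with PMA, in J-Lat A2 and Jurkat in that order.

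Few regulators of the G1 to S step passed the test. For comparison, 3.53% of all genes rose with SAHA in J-Lat A2. In Jurkat 2.37% of all genes fell with SAHA and 1.11% fell with PMA. Of 21 E2F, RB and S phase kinase genes, RB1 rose with SAHA in J-Lat A2 (1.13 ± 0.24 SE, adjusted p = 0.0191), CCNE2 fell with SAHA in Jurkat (-1.64 ± 0.34 SE, adjusted p = 0.0267), CCNA2 and TFDP2 fell with PMA in Jurkat (-1.52 ± 0.225 SE, adjusted p = 0.0082 and -1.125 ± 0.24 SE, adjusted p = 0.0422), and none changed with PMA in J-Lat A2. E2F1 was barely read, at 0.07 to 10.8 CPM with SAHA and 1.79 to 9.22 with PMA, against 2.93 to 15.4 CPM with DMSO in J-Lat A2, and its log2 change was -1.39 ± 1.05 (SE, adjusted p = 0.532) with SAHA and -1.14 ± 1.38 (SE, adjusted p = 0.866) with PMA. The Jurkat plates of CCNE2, the cyclin E2 of S phase entry, had 14.2, 19.2 and 12.1 CPM under SAHA and 107.7, 71.96 and 167.9 CPM under PMA, against 61.2, 98.8, 74.01, 43.4 and 29.3 CPM with DMSO in Jurkat.

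Genes of G2 and M phase went the other way with SAHA. Of the 38, 24 rose in J-Lat A2 and 19 in Jurkat and none fell, with medians of 0.95 and 1.08. Among all genes, 3.53% rose and 4.9% fell in J-Lat A2, and 1.84% rose and 2.37% fell in Jurkat. Their sum was 15419 ± 1255 CPM (SD, n = 5 plates) with SAHA and 6213 ± 2008 CPM (n = 3) with PMA, against 7978 ± 1136 CPM (n = 5) with DMSO in J-Lat A2. In Jurkat it was 20099.5 ± 1971 CPM (n = 3) with SAHA and 4655 ± 1282 CPM (n = 3) with PMA, against 8806 ± 3101 CPM (n = 5) with DMSO. CKS2 and CKAP2 were among the clearest (1.64 ± 0.17 SE, adjusted p = 0.000566 and 1.72 ± 0.19 SE, adjusted p = 0.000711 with SAHA in J-Lat A2). With PMA, 3 fell in J-Lat A2, among them BIRC5 (-1.37 ± 0.22 SE, adjusted p = 0.012), and 13 in Jurkat, among them DLGAP5 (-1.93 ± 0.235 SE, adjusted p = 0.00325). Among all genes, 0.804% fell with PMA in J-Lat A2 and 1.11% in Jurkat. The PMA plates of the G2 and M phase sum overlapped the DMSO plates in both lines.

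Single wells showed what the plate sums hide. With PMA the sum of the 44 genes ran from 203 to 15608 CPM over 79 wells of J-Lat A2 (median 4828, quartiles 1527 and 9470), against 3505 to 18488 CPM over 94 wells with DMSO (median 9377, quartiles 6666 and 12234). In Jurkat it ran from 329 to 13570 CPM over 36 wells with PMA (median 3509), against 5390 to 15148 CPM over 30 wells with DMSO (median 8254). A large share of the PMA wells lay under every DMSO well, 33 of 79 (41.8%, exact 95% binomial interval 30.8 to 53.4%) in J-Lat A2 and 26 of 36 (72.2%, 54.8 to 85.8%) in Jurkat. Others were as high as with DMSO: 11 of 79 (13.9%) and 6 of 36 (16.7%) lay over the upper quartile of the DMSO wells. The coefficient of variation over wells was 0.797 with PMA against 0.35 with DMSO in J-Lat A2, and 0.839 against 0.284 in Jurkat, and it was higher on each PMA plate (0.734 to 0.836 in J-Lat A2 and 0.788 to 0.915 in Jurkat) than on any DMSO plate (0.187 to 0.407 and 0.191 to 0.353). The intervals cover counting error only, and wells of a plate are not replicates of a treatment. They take the bound as known, though it is 1 well, the lowest of 94 in J-Lat A2 and of 30 in Jurkat. The shares of the 2 lines under that bound are therefore not alike, here and for SAHA below. Of the 94 DMSO wells of J-Lat A2, 59 are of the first batch, while all PMA wells are of the second.

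The SAHA wells ran from 2096 to 26913 CPM over the kept wells in J-Lat A2 (median 7108, quartiles 6088 and 8839) and from 4805 to 10955 CPM over 36 wells in Jurkat (median 6683, quartiles 6106 and 7142). Only 8 wells of J-Lat A2 (5.9%, 2.6 to 11.3%) and 4 of 36 of Jurkat (11.1%, 3.1 to 26.1%) lay under every DMSO well of their line, while 14 (10.4%) and 2 (5.6%) lay over the upper quartile of the DMSO wells. The coefficient of variation with SAHA was 0.43 in J-Lat A2 (0.299 to 0.56 over its plates) and 0.2 in Jurkat (0.172 to 0.215). After each well was thinned to 100000 counts, which left out 23 of the 410 wells, the median number of the 44 genes with a read per well was 29 with SAHA and 25 with PMA, against 35 with DMSO in J-Lat A2, and 36 with SAHA and 21 with PMA, against 36.5 with DMSO in Jurkat. Before thinning the medians were 29 and 27, against 35, and 37 and 22, against 38.5. The thinned coefficients of variation were 0.392 with SAHA and 0.8 with PMA, against 0.351 with DMSO in J-Lat A2, and 0.202 with SAHA and 0.849 with PMA, against 0.289 with DMSO in Jurkat.

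**Figure D4:**
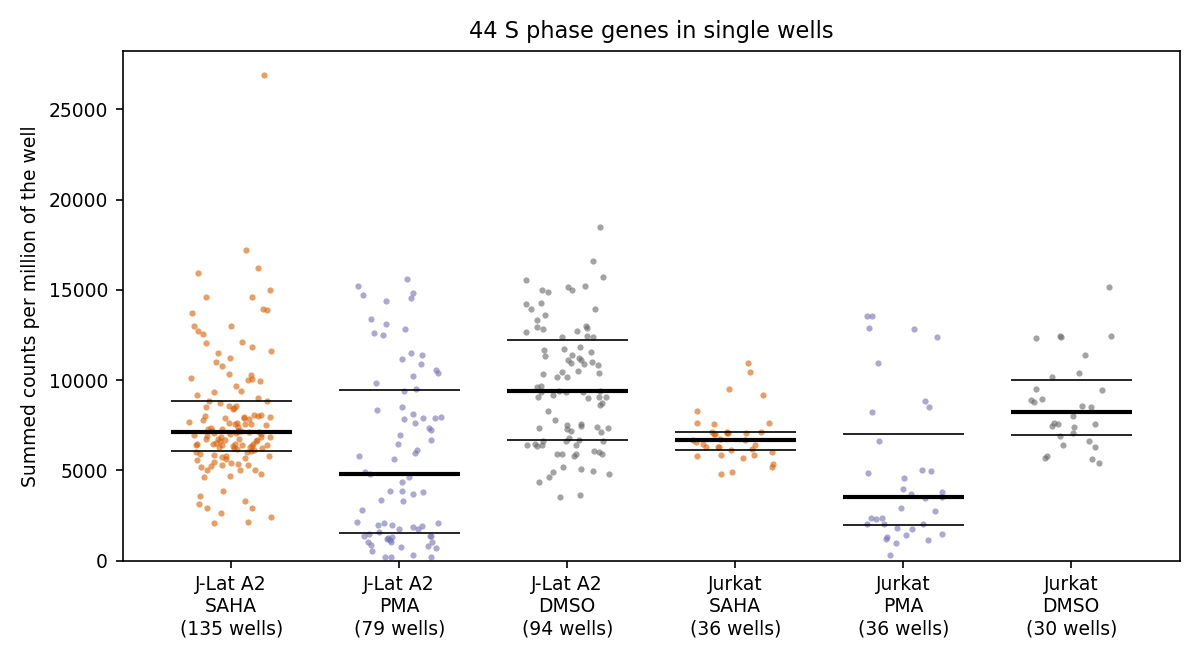
Summed CPM of the 44 S phase genes in each kept well, by line and treatment. Each point is 1 well, the thick line is the median and the thin lines are the quartiles; with PMA the wells reach from near 0 to the range of the DMSO wells, and with SAHA in Jurkat the quartiles are 6106 and 7142 CPM.

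Set against the G2 and M phase sum of the same well, the S phase sum ran in opposite directions with and without PMA. Spearman's rho over wells was 0.57 with PMA against -0.43 with DMSO in J-Lat A2, and 0.75 against -0.75 in Jurkat. With SAHA it was -0.28 and -0.26. The wells share plates and treatments, and both sums are shares of the same total, so these are descriptions. In the DMSO wells, those high in S phase genes tended to be low in G2 and M phase genes. Among the PMA wells both sums tended to rise and fall together. Wells low in both sums were not counted. With the MCM and licensing sum, rho was 0.31 with SAHA and 0.86 with PMA, against 0.66 with DMSO in J-Lat A2, and 0.41 with SAHA and 0.9 with PMA, against 0.78 with DMSO in Jurkat. With the number of genes read in the well, rho was 0.39 with PMA against -0.03 with DMSO in J-Lat A2, and 0.49 against -0.07 in Jurkat, and with total counts 0.24 against 0.14, and 0.23 against -0.26. The wells with PMA that were low in S phase genes thus also tended to hold fewer genes. The part of this in the result was not tested. With the level of the HIV construct, rho was -0.11 over the SAHA wells and -0.36 over the PMA wells of J-Lat A2.

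**Figure D5:**
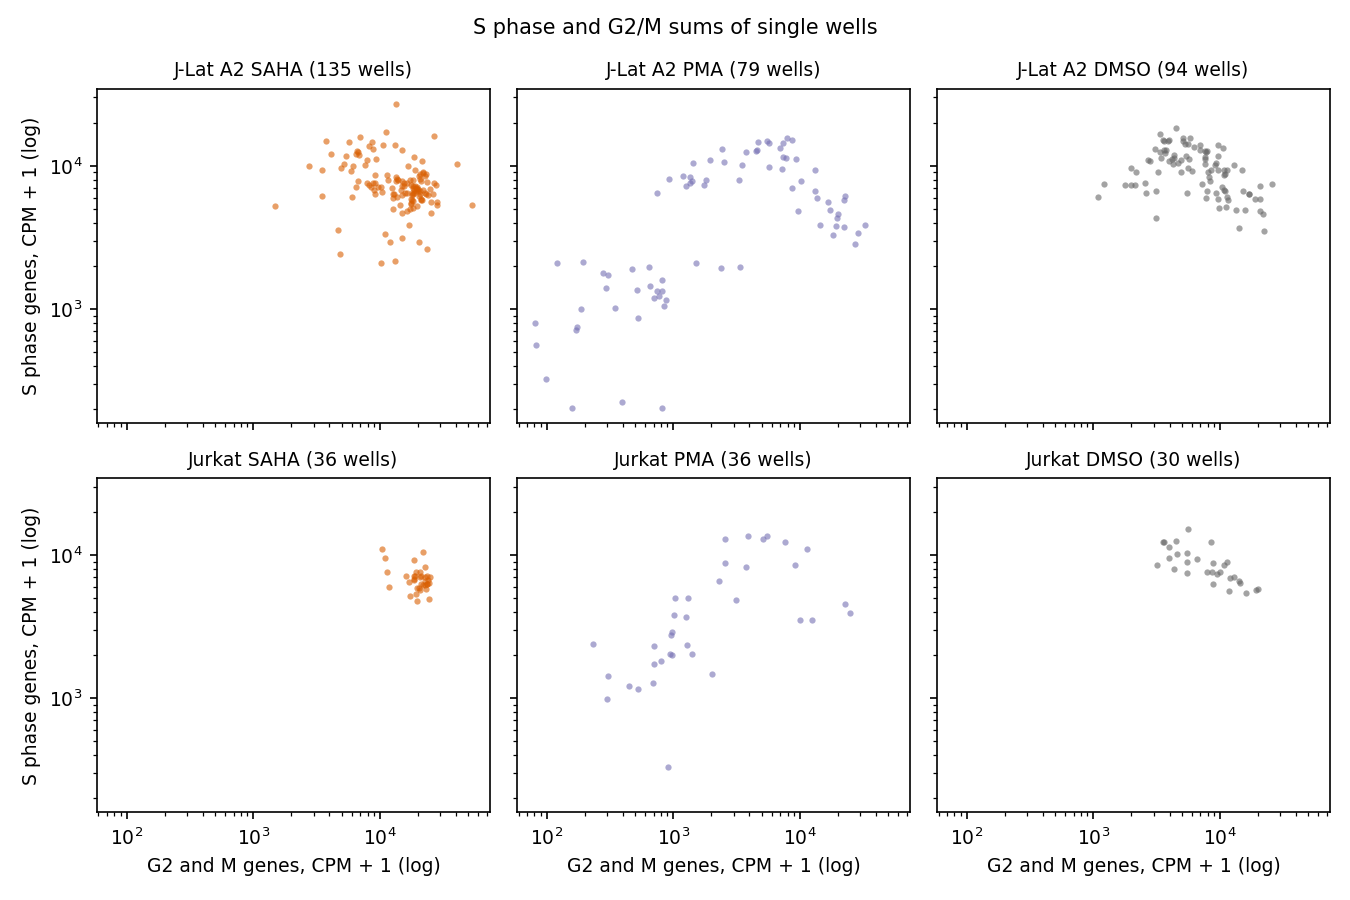
Summed S phase genes (vertical) against summed G2 and M phase genes (horizontal) of each kept well, in CPM plus 1 on logarithmic axes, for J-Lat A2 (top) and Jurkat (bottom) with SAHA, PMA and DMSO from left to right. Each point is 1 well. In the PMA panels both sums tended to rise and fall together.

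The genes differed in how closely they followed the rest of the 44 from well to well. The median over the 6 groups of Spearman's rho between a gene and the sum of the other members was highest for PCNA (0.72), CDC6 (0.67), TYMS (0.61), RFC4 (0.55) and FEN1 (0.55), and lowest for GINS1 (0.04), POLE (0.07), GINS4 (0.09) and POLD2 (0.1). A low value can come with sparse reads: GINS1 had a read in 45.6% of wells and POLE in 24.9%, against 88.3% for PCNA. POLD2, though, was read in 92.7% of wells. With SAHA most members followed the rest less closely than with DMSO: the median rho of the 44 was 0.125 with SAHA and 0.605 with PMA, against 0.31 with DMSO in J-Lat A2, and 0.1 with SAHA and 0.59 with PMA, against 0.225 with DMSO in Jurkat. With SAHA 37 of 44 members in J-Lat A2 and 32 in Jurkat were below their own rho with DMSO. As examples, TYMS followed the rest in J-Lat A2 with PMA (0.92) and DMSO (0.64) and in Jurkat with PMA (0.87) and DMSO (0.59), but had rho of 0.08 and -0.02 in the SAHA wells of J-Lat A2 and Jurkat. PCNA had 0.33 and 0.29 in the SAHA wells, against 0.71 and 0.74 with DMSO. UNG had 0.23 and 0.19 in the SAHA wells, against 0.48 and 0.55 with DMSO.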

How the data were processed

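Single cells were sequenced as full-length cDNA made by template switching, without strand and without molecular identifiers, per the labels' protocols. The deposited table holds expected counts (estimated counts) per feature and well made by the authors; 13.72% of its values above 0 are not whole, and they were rounded after summing. The submitters' processing notes name Salmon 1.5.1, alevin and GRCh38.p13. No source used here states the sort gate.

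Wells were kept with at least 0.1 of their plate's median total and 500 genes. Kept wells were summed per group and plate (24 sums, for levels in CPM) and per group and batch (9 sums, for tests). Plates P2449 and P2458 were taken as the first batch and P2769, P2770 and P2771 as the second, from the runs of plate names and the number of plates of each batch in the study's design. edgeR 4.0.16 (R 4.3.3) fitted all 6 groups with the batch as a block, TMM scaling, a quasi-likelihood test and Benjamini-Hochberg adjustment over 13560 genes, with 2 residual degrees of freedom. The block is the batch that the design text names; deviations of the groups with both batches correlated at 0.05 to 0.08 across genes. Nothing says that wells came from separate cultures, so p-values measure the spread between these sums, which may be technical. DESeq2 1.42.0 and limma 3.58.1 were alternatives, with other scalings, filters and left-out sums. Tables and figures used Python 3.11.15, pandas 2.3.3, numpy 2.4.6, scipy 1.17.1 and matplotlib 3.10.9.

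The members and the gene lists were chosen with earlier results of these data known. All 44 members could be named. Values of every plate were given for those that passed in a comparison with DMSO, and of each other list at most 4 genes with the lowest adjusted p were named. Genes shown beside these as examples that did not pass, and ENOSF1, were chosen after their values were seen.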

Additional observations from a re-analysis of the deposited data

Results flagged for a closer look

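In 4 groups of 5 plate sums a single plate stood apart from the other 4 by Dixon's test, where chance gives about 1 in 20 groups tested, or 6.8. RRM1 had 359.448 CPM on plate P2769 of J-Lat A2 with DMSO, where the next plate had 627.748 CPM. CDC6 had 132.561 CPM on the same plate and group, where the next plate had 249.706 CPM. POLD1 had 152.926 CPM on plate P2458 of J-Lat A2 with SAHA, where the next plate had 50.6488 CPM. RFC3 had 163.528 CPM on that plate, where the next plate had 227.63 CPM.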

How the results depend on the processing

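None of the log2 ratios of the sum changed direction in the alternatives run, and nor did those of the 44 genes that passed. The named genes outside the 44 were not scored in the alternatives. Counts of called genes were not scored for direction. With DESeq2, SAHA against DMSO in Jurkat had 3 members higher and 4 lower, where edgeR had none higher. Relations over wells and promoter words had no alternative. The median of the 44 for the difference between lines in the SAHA response, -0.081, was 0.007 with an equal weight per cell, and that for PMA, 0.112, was -0.011 in the second batch alone. The number of the 44 genes called moved by over 1.5 times as follows, and the cause was not tested. Apart from limma, which called no gene of the whole table, the share of all genes called was not computed for these alternatives. SAHA against DMSO in J-Lat A2 gave 6 genes, 3 in the second batch alone, 0 with an equal weight per cell in limma, and 2 to 7 with 1 sum left out. PMA against DMSO in J-Lat A2 gave 2, 1 with RLE size factors, 7 with DESeq2, 0 with limma, 1 with the stricter well filter, and 1 to 5 with 1 sum left out. SAHA against DMSO in Jurkat gave 2, 7 with DESeq2, 7 with plate sums, 4 in the second batch alone, 0 with limma, and 2 to 5 with 1 sum left out. PMA against DMSO in Jurkat gave 4, 14 with DESeq2, 9 with plate sums, 0 with limma, and 0 to 11 with 1 sum left out; without the second-batch DMSO sum of Jurkat, edgeR's adjusted p was 0.0565 for POLD2, 0.0778 for RFC5, 0.0889 for TYMS and 0.0937 for CDC6. PMA against SAHA in J-Lat A2 gave 3, 5 with DESeq2, 5 in the second batch alone, 0 with limma, and 2 to 5 with 1 sum left out. PMA against SAHA in Jurkat gave 6, 10 with DESeq2, 10 with plate sums and 0 with limma. J-Lat A2 against Jurkat under DMSO gave 0, 1 with DESeq2 and 2 with plate sums. Without the batch as a replicate block, PMA against SAHA in J-Lat A2 gave 1 gene, and the 4 comparisons with DMSO gave 6, 2, 2 and 3. The log2 ratio of the summed genes, PMA against DMSO in Jurkat, was -1.13 as a median over wells, against -0.74. With limma, 16, 12, 8 and 17 members had an unadjusted p under 0.05 in the comparisons with DMSO, SAHA before PMA and J-Lat A2 before Jurkat (36.4, 27.3, 18.2 and 38.6%, against 21.5, 12.8, 17.2 and 14.3% of all genes); SAHA in Jurkat was near the share of all genes. PMA, and SAHA in Jurkat, rest on 1 sum each from the second batch.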
